A study of Mus musculus with 10 samples.

Results

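The genes described here encode the enzymes that turn plasminogen into plasmin and the proteins that hold or stop them. They are Plau, Plat, Plaur, Serpinb2, Serpine2 and Anxa2, taken by gene name from a table of 34745 genes. All 6 were found and all 6 passed the filter on low counts. Plasminogen is an inactive protease precursor that circulates in blood. Urokinase (uPA, from Plau) and tissue-type plasminogen activator (tPA, from Plat) cleave it to plasmin, which dissolves fibrin clots and cuts matrix proteins. The urokinase receptor uPAR (from Plaur) holds uPA at the surface of leukocytes, and serpins block both activators by forming irreversible complexes with them. In the inflamed peritoneum, this balance is known to set how fast fibrin deposited on the lining is removed.

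PolyA RNA was sequenced from cells washed out of the peritoneal cavity of mice with sepsis after cecal ligation and puncture, an operation that lets gut bacteria into the abdomen. Of the 10 libraries, 5 are named AX and 5 NC. The series compares amlexanox with vehicle, so AX was read as amlexanox-treated and NC as vehicle-treated septic mice; the labels spell out neither abbreviation. Both groups therefore carry sepsis, and no unoperated mice were analysed here. Amlexanox is a small anti-inflammatory molecule that inhibits the kinases TBK1 and IKKε. The labels used here give no strain, age, dose or time, and do not say that each library came from its own animal, so p-values may measure technical spread only.

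Libraries held between 10221170 and 13806885 counts. Levels are counts scaled to a common library total (CPM). Group means carry the SD of their 5 libraries, and a fold change divides AX by NC. AX 6 and NC 1 stood apart from the other 8 libraries in markers of cells that line the cavity. The summed level of 15 mesothelial markers was 2520 CPM in AX 6 and 142 to 443.7 CPM in the other AX libraries, against 1354 CPM in NC 1 and a range of 159.4 to 348.1 CPM among its 4 fellow libraries. Of these 15 markers, 13 had at least 10 counts in every library. Fibroblast and stromal markers followed the same pattern, with 3030 CPM in AX 6 and 1760 CPM in NC 1, against 296.2 to 940.3 CPM in the other 8. Most of the stromal sum in AX 6 and NC 1 was Dcn, at 2284 CPM and 1035 CPM. Gut epithelial markers were also highest in NC 1, at 1126 CPM, and AX 6, at 499.8 CPM. NC 4 followed at 437.8 CPM, and the remaining libraries had 16.7 to 119.7 CPM. Neutrophil markers, of which 15 of 15 were detected in every library, summed to 7343 to 16650 CPM across AX and 10670 to 20650 CPM across NC. Resident large peritoneal macrophage markers were present but low once the acute-phase gene Saa3 was left out, at 151.8 to 479.5 CPM across AX and 93.7 to 281.4 CPM across NC. Endothelial markers summed to 46.69 to 119.9 CPM across AX and 74.86 to 132.5 CPM across NC. Except in AX 6, most of that sum was Pecam1, which leukocytes also carry. Pecam1 stood at 31.8 to 103.5 CPM across AX and 64.6 to 116.4 CPM across NC. Esam had 15.3 ± 15.1 CPM in AX libraries, against 11.3 ± 12.8 CPM in NC libraries. In AX 6 Esam exceeded Pecam1, at 41.5 CPM against 31.8 CPM, in an endothelial sum of 78.4 CPM. Of the 12 endothelial markers, 6 stayed under 10 counts in every library, with Emcn at 0 in all. In such bulk RNA, fewer cells of a type and less RNA per cell cannot be told apart. The part of the cell mixture in the values below was not tested.

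Plau encodes urokinase, the activator that uPAR presents at the leukocyte surface (ENSMUSG00000021822, chromosome 14, 20836662 to 20843388 on mm10, plus strand). It was a low transcript. In AX libraries 6 to 10 it stood at 26.65, 9.94, 6.50, 8.75 and 9.47 CPM. In NC libraries 1 to 5 it stood at 26.02, 7.17, 7.70, 4.96 and 9.11 CPM. One library of each group was thus about 3 times as high as the rest, and the other 8 libraries lay within 4.96 to 9.94 CPM with the groups overlapping. AX 6 and NC 1, the libraries rich in mesothelial markers, were those 2, at 3.24 and 3.16 times the median of the other 8. The means were 12.3 ± 8.15 CPM in AX libraries, against 10.99 ± 8.54 CPM in NC libraries (SD, n = 5 each). At its lowest, in NC 4, Plau had 62 counts, for which counting error alone gives a 95% Poisson interval of 3.80 to 6.36 CPM; such intervals cover counting error only. The log2 fold change was 0.29 ± 0.50 (SE), and exact permutation of the means (two-sided) gave p = 0.571.

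Plat encodes tPA, the activator that works best on fibrin and that mesothelial and endothelial cells are known to make (ENSMUSG00000031538, chromosome 8, 22757744 to 22782847 on mm10, plus strand). The AX libraries 6 to 10 had 146, 29.6, 18.3, 25.9 and 3.68 CPM. The NC libraries 1 to 5 had 100.3, 9.78, 17.9, 6.64 and 5.99 CPM. The range was 39.7-fold from the lowest to the highest library, and the highest libraries were again AX 6 and NC 1. They exceeded the median of the other 8 libraries by 10.6 times in AX 6 and 7.26 times in NC 1. The lowest library, AX 10, also had the lowest mesothelial marker sum, 142 CPM. Without AX 6 and NC 1, 3 of the 4 remaining AX libraries were above all 4 remaining NC libraries, but AX 10 was below them all. The means were 44.7 ± 57.5 CPM in AX libraries, against 28.1 ± 40.6 CPM in NC libraries (SD, n = 5 each), and the log2 fold change was 0.86 ± 0.98 (SE). Exact permutation of the means (two-sided) gave p = 0.508.

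**Figure D1:**
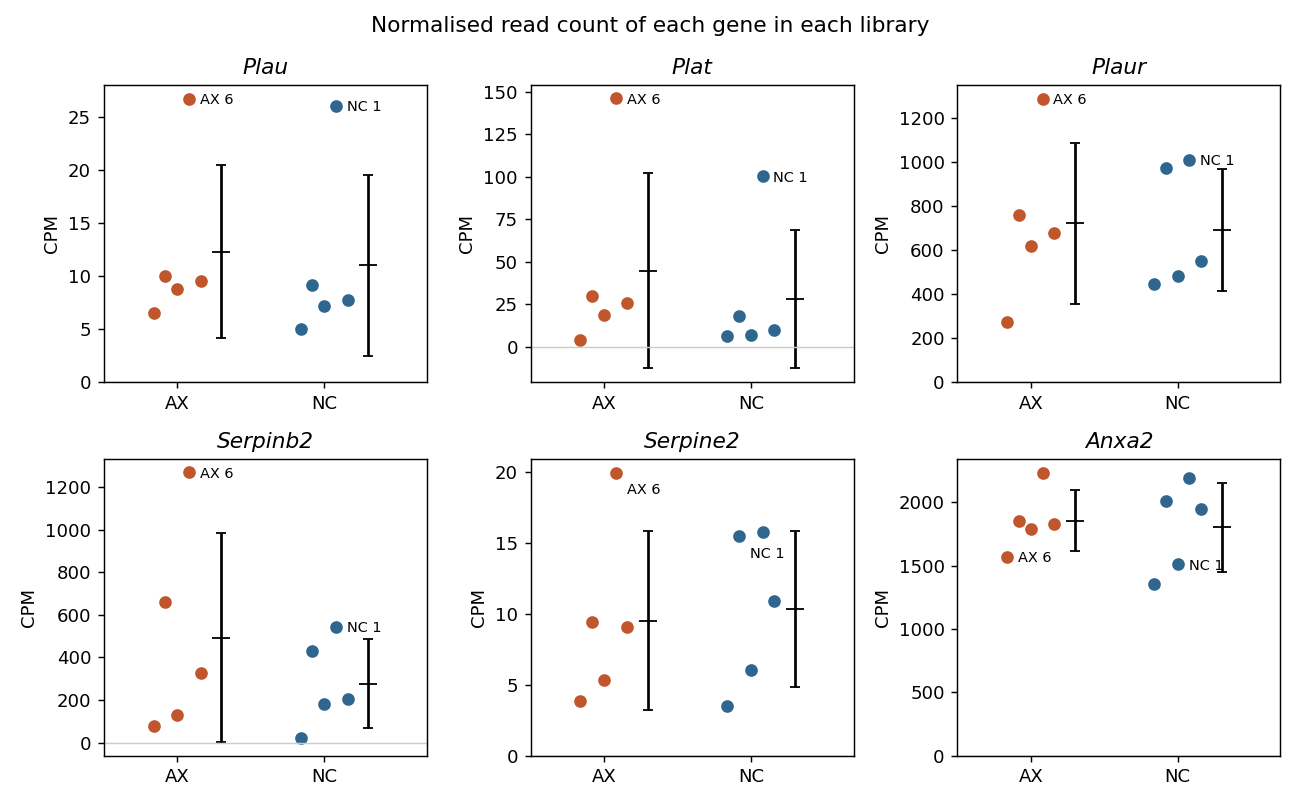
Normalised read count (CPM, linear axis) of the 6 genes in each library, AX left and NC right. Points are libraries, black bars are the mean ± SD of 5 libraries, and AX 6 and NC 1 are labelled. In Plau and Plat these 2 libraries stand above all others, while for Anxa2 they are among the 3 lowest.

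With the mesothelial marker level as a covariate, the log2 fold changes were 0.25 ± 0.32 for Plat and 0.03 ± 0.25 for Plau (SE). That level was the mean log2 CPM of the 13 tested markers, not the CPM sum given above. Leaving out AX 6 turned the direction of both genes, to -0.44 for Plat and -0.27 for Plau. Leaving out NC 1 moved them the other way, to 2.20 and 0.80. For Plat without NC 1 the unadjusted p was 0.0351 and the adjusted p was 0.999 with edgeR. With both libraries left out, Plat stood at 0.89 ± 0.58 and Plau at 0.24 ± 0.25 (SE).

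**Figure D2:**
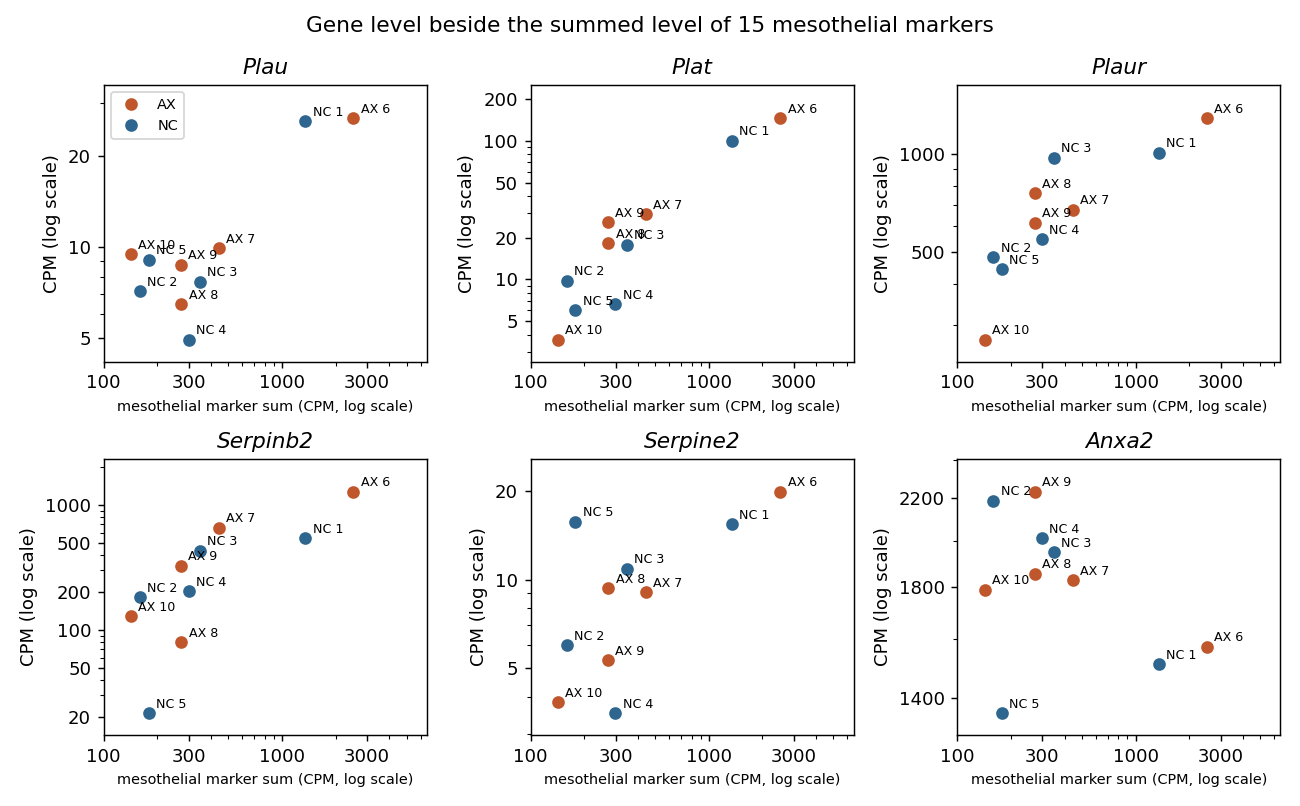
Level of each of the 6 genes (CPM, log scale) against the summed level of 15 mesothelial markers (CPM, log scale) in each library. AX 6 (2520 CPM of markers) and NC 1 (1354 CPM) lie far to the right; Plat is high in both, while Serpine2 is also high in NC 5, whose marker sum is 178.5 CPM.

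Plaur encodes uPAR, a receptor anchored in the outer membrane layer by a lipid and known on neutrophils, monocytes and macrophages (ENSMUSG00000046223, chromosome 7, 24462484 to 24475968 on mm10, plus strand). It was abundant in all 10 libraries. In AX libraries 6 to 10 it stood at 1286, 675.6, 759.3, 616.3 and 270.7 CPM. In NC libraries 1 to 5 it stood at 1009, 482.3, 974.6, 547.6 and 444.9 CPM. AX 6 was the highest and AX 10 the lowest library, so both extremes lay within AX and the NC values fell between them. AX 6 also had the highest mesothelial marker sum, 2520 CPM, and AX 10 the lowest, 142 CPM. NC 3 was close to NC 1 in Plaur, with marker sums of 348.1 CPM in NC 3 and 1354 CPM in NC 1. By neutrophil markers, AX 10 ranked 10 of 10 (7343 CPM), AX 6 ranked 6 (12570 CPM) and NC 2 ranked 1 (20650 CPM). By monocyte markers, AX 10 ranked 9 (3335 CPM), AX 6 ranked 6 (4395 CPM) and NC 2 ranked 1 (6464 CPM). In Plaur, NC 2 ranked 8. The part of mesothelial cells, neutrophils or monocytes in the Plaur values was not tested. The means were 721.7 ± 366 CPM in AX libraries, against 691.8 ± 277 CPM in NC libraries (SD, n = 5 each), and exact permutation (two-sided) gave p = 0.881. The log2 fold change of 0.14 ± 0.41 (SE) turned to -0.21 without AX 6.

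Serpinb2 encodes PAI-2, a serpin that inhibits uPA and tPA, is induced strongly in activated monocytes and macrophages, and stays largely inside the cell (ENSMUSG00000062345, chromosome 1, 107511423 to 107535478 on mm10, plus strand). The AX libraries 6 to 10 had 1271, 658.9, 80.1, 327 and 128 CPM. The NC libraries 1 to 5 had 543.8, 182.9, 430.2, 203.6 and 21.5 CPM. It had the widest range of the 6 genes, 59.1-fold, from NC 5 to AX 6. AX 6 and AX 7 were above every NC library, yet AX 8 and AX 10 were below all NC libraries except NC 5. NC 5, with 248 counts, was the lowest library, and its Poisson interval of 18.9 to 24.4 CPM does not reach the 80.1 CPM of the next lowest, AX 8. The macrophage marker sum without Saa3 in NC 5 was 134.4 CPM, the ninth of 10 libraries. NC 3 had the lowest such sum, 93.7 CPM, and the fourth highest Serpinb2. By monocyte markers, NC 3 ranked 4 of 10 (4636 CPM), NC 5 ranked 8 (3495 CPM) and AX 8 ranked 10 (2766 CPM). NC 2 had the highest monocyte sum, 6464 CPM, but ranked 7 in Serpinb2, while AX 6 ranked 6 by monocyte markers and 1 in Serpinb2. The part of macrophages or monocytes in the Serpinb2 values was not tested. The means were 493.1 ± 491 CPM in AX libraries, against 276.4 ± 209 CPM in NC libraries (SD, n = 5 each). The log2 fold change of 0.92 ± 0.84 (SE) covers folds from 0.526 to 6.78 at 95%, and the permutation p was 0.437 (exact, two-sided). Without AX 6 the log2 fold change was 0.09, and with the mesothelial covariate 0.20 ± 0.58 (SE). The annotated gene Serpinb10 overlaps Serpinb2 on the same strand; that row held 515 counts over all libraries against 46793 for Serpinb2.

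Serpine2 encodes protease nexin 1, a secreted serpin that inhibits thrombin, uPA and tPA at cell surfaces and in matrix (ENSMUSG00000026249, chromosome 1, 79794197 to 79861180 on mm10, minus strand). It had the lowest mean CPM of the 6 genes in both groups, but it was not the lowest in every library. In AX libraries 6 to 10 it stood at 19.9, 9.10, 9.39, 5.34 and 3.84 CPM. In NC libraries 1 to 5 it stood at 15.5, 6.01, 10.9, 3.52 and 15.8 CPM. AX 6 was the highest, but NC 5, poor in Plat, Plaur and Serpinb2, was second and level with NC 1. The means were 9.52 ± 6.29 CPM in AX libraries, against 10.3 ± 5.51 CPM in NC libraries (SD, n = 5 each). The fitted difference was near 0, with a log2 fold change of -0.02 ± 0.53 (SE) and an exact two-sided permutation p of 0.825, and its sign changed on leaving out any of 6 libraries (values from -0.53 without AX 6 to 0.21 without NC 5).

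Anxa2 encodes annexin A2, a calcium-dependent membrane protein that, paired with S100A10, binds plasminogen and tPA at the cell surface (ENSMUSG00000032231, chromosome 9, 69453620 to 69491795 on mm10, plus strand). The AX libraries 6 to 10 had 1572, 1828, 1855, 2233 and 1789 CPM. The NC libraries 1 to 5 had 1511, 2189, 1948, 2010 and 1352 CPM. The whole range was 1.65-fold, and AX 6 and NC 1 were among the 3 lowest libraries, opposite to their place for the activators. The means were 1855 ± 239 CPM in AX libraries, against 1802 ± 354 CPM in NC libraries (SD, n = 5 each). Its log2 fold change of 0.09 ± 0.20 (SE) was the most precise of the 6, with a 95% interval for the fold from 0.790 to 1.44, and the exact two-sided permutation p was 0.810. Of the genes tested, 6.06% had a smaller SD of log2 CPM over the 10 libraries than Anxa2, whereas 96.7% had a smaller SD than Plat and 96.5% a smaller SD than Serpinb2.

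Promoter windows of 250 bases before a RefSeq start on GRCm38.p6, the build named mm10, were used for 4 of the 6 genes; those of Plau and Plat were not used here. Windows are shown for Plaur, Serpinb2 and Anxa2, because each holds an AP-1 motif, TGANTCA, although their levels varied over very unequal ranges between libraries (4.75-fold, 59.1-fold and 1.65-fold). The motif reads the same on both strands. Capitals mark matches to that motif and to the TATA box, TATAAA, which was searched on both strands and overlaps no AP-1 match here. RefSeq and the deposited table differ in where Anxa2 starts: the RefSeq start lies 63 bases downstream, at 69453683, so the sequence printed for Anxa2 stops before the table's start and holds 187 bases.
Plaur, chr7:24462233-24462482, plus strand: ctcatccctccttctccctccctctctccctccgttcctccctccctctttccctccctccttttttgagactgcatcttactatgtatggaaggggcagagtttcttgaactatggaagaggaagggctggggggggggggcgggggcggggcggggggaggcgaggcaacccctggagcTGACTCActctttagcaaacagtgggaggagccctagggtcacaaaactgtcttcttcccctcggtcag
Serpinb2, the upstream one of 2 starts, chr1:107511173-107511422, plus strand: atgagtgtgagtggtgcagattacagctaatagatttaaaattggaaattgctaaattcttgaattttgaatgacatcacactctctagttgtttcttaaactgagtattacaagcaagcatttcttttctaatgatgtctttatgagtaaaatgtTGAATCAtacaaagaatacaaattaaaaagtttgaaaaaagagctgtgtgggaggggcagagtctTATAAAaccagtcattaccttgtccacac
Anxa2, chr9:69453433-69453619, plus strand: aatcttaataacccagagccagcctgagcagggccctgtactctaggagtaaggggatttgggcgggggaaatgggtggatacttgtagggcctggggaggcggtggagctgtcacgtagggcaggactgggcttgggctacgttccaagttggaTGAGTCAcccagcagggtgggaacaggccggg

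The AP-1 motif began 69 bases before the start in Plaur, 94 bases before it in Serpinb2 and 95 bases before it in Anxa2, counted from the RefSeq start. It was found in 3 of the 4 promoters, not in that of Serpine2, whose window lies wholly inside the span the table gives the gene, and in 6.87% of 27025 promoters of the same length. The TATA box was found in Serpinb2 and Anxa2, 29 and 17 bases before the RefSeq start, and in 13% of all promoters. In Anxa2 that match lies past the table's start and is not in the printed sequence. The cyclic AMP response element, TGACGTCA, present in 1.62% of promoters, and the NF-kappaB site, present in 7.01%, gave no match in the 4 windows. These matches describe the letters only.

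Set side by side per gene length, as FPKM values deposited by the authors, the 6 genes kept much the same order in every library. Anxa2 was first in all 10 libraries, at 330.8 to 546.5 FPKM, and ranked between place 77 and place 138 among all genes of a library. Plaur followed at 52.1 to 247.5 FPKM and Serpinb2 at 5.79 to 342 FPKM. These neighbours did not differ beyond their spread, since Plaur was above Serpinb2 in 8 libraries and below it in AX 6 and AX 7. That crossing rests on the gene lengths behind FPKM, 5197 bases for Plaur and 3717 bases for Serpinb2. In CPM, Plaur was slightly above Serpinb2 in AX 6 (1286 against 1271) and in AX 7 (675.6 against 658.9). Next came Plat at 1.45 to 57.7 FPKM and Plau at 2.12 to 11.4 FPKM, and these too overlapped. Plat was above Plau in 8 libraries and below it in AX 10 and NC 5; the Plau to Plat ratio ran from 0.197 in AX 6 to 2.78 in AX 10. Serpine2 was last in all 10 libraries, at 0.400 to 2.26 FPKM. Receptor mRNA exceeded urokinase mRNA in all 10 libraries, with a median Plau to Plaur ratio of 0.0328.

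**Figure D3:**
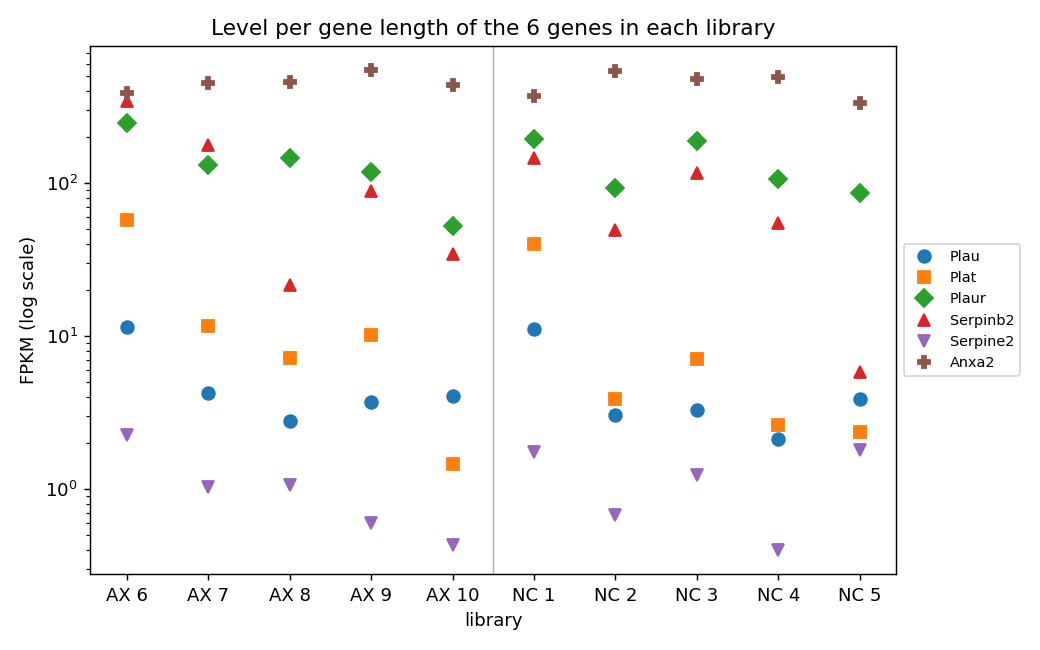
Level per gene length (deposited FPKM, log scale) of the 6 genes in each library, AX libraries left of the line and NC libraries right of it. Anxa2 is highest and Serpine2 lowest throughout, while Plaur and Serpinb2 cross in AX 6 and AX 7, and Plat and Plau cross in AX 10 and NC 5.

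Between the groups, 0 of the 6 genes passed an adjusted p of 0.05 with the quasi-likelihood test of edgeR, and 0% of the 12264 genes tested did. At an unadjusted p under 0.05 there were 0 of 6, where 0.921% of all genes tested were (113 genes with edgeR; DESeq2 also called 0 and had 193). The groups overlapped in CPM for all 6 genes, and they did not overlap for 0.0978% of genes tested. Adjusted p with edgeR was 0.9999 for each gene. The 95% intervals of the fold were wide for the activators and serpins, from 0.568 to 2.62 for Plau, from 0.407 to 8.15 for Plat, from 0.589 to 2.07 for Plaur and from 0.437 to 2.22 for Serpine2. A 2-fold difference in either direction therefore lies within the interval of Plat and of Serpine2, and a 2-fold rise also within those of Plau, Plaur and Serpinb2. For Anxa2 the interval excludes a 2-fold difference in either direction.

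**Figure D4:**
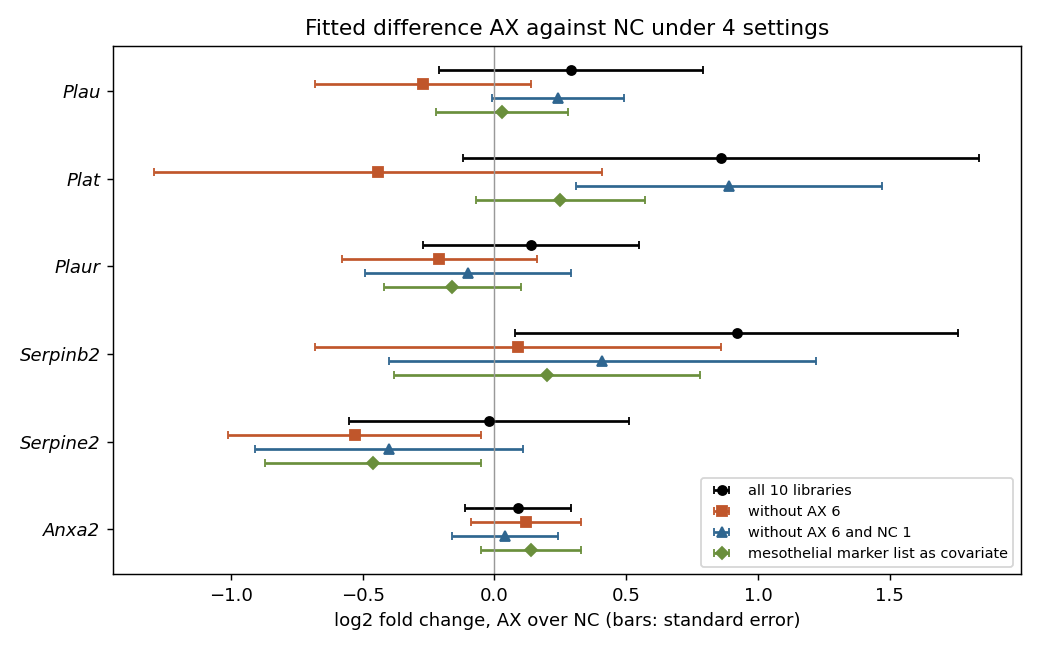
Fitted log2 fold change, AX over NC, of the 6 genes with its standard error, with all 10 libraries, without AX 6, without AX 6 and NC 1, and with the mesothelial marker list as covariate. For Plat and Plau the value turns below 0 without AX 6, while Anxa2 stays between 0.04 and 0.14 in these 4 fits.

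Across the 10 libraries the 6 genes did not all vary together. Of 15 pairs, the pair of Plat and Plaur alone passed a permutation test adjusted over the pairs, with Pearson r = 0.89 (adjusted p = 0.007) and Spearman rho = 0.88 (adjusted p = 0.024; raw permutation p = 0.00047 and 0.0016). Without AX 6 and NC 1, the libraries farthest from the median of Plat, r was 0.81 over 8 libraries, but no pair passed without these 2 libraries or without AX 6 alone. Plat and Plau had r = 0.80 (adjusted permutation p = 0.060) and rho = 0.53 (adjusted permutation p = 0.21), and without AX 6 and NC 1 r was 0.14, so that relation rests on these 2 libraries. Plat and Serpinb2 had r = 0.75 and rho = 0.81 (adjusted permutation p = 0.060 and 0.051), with r = 0.60 without AX 6 and NC 1. Serpine2 and Anxa2 ran in opposite directions, with r = -0.72 and rho = -0.67 (raw permutation p = 0.020 and 0.039, adjusted 0.069 and 0.12). Leaving out AX 10 and NC 4, farthest from the median of Serpine2, gave r = -0.91, and leaving out AX 6 and NC 1 gave r = -0.61. The pair counts depended on single libraries, since 7 of 15 pairs passed without NC 5 and 3 passed without AX 8 or without AX 10.

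**Figure D5:**
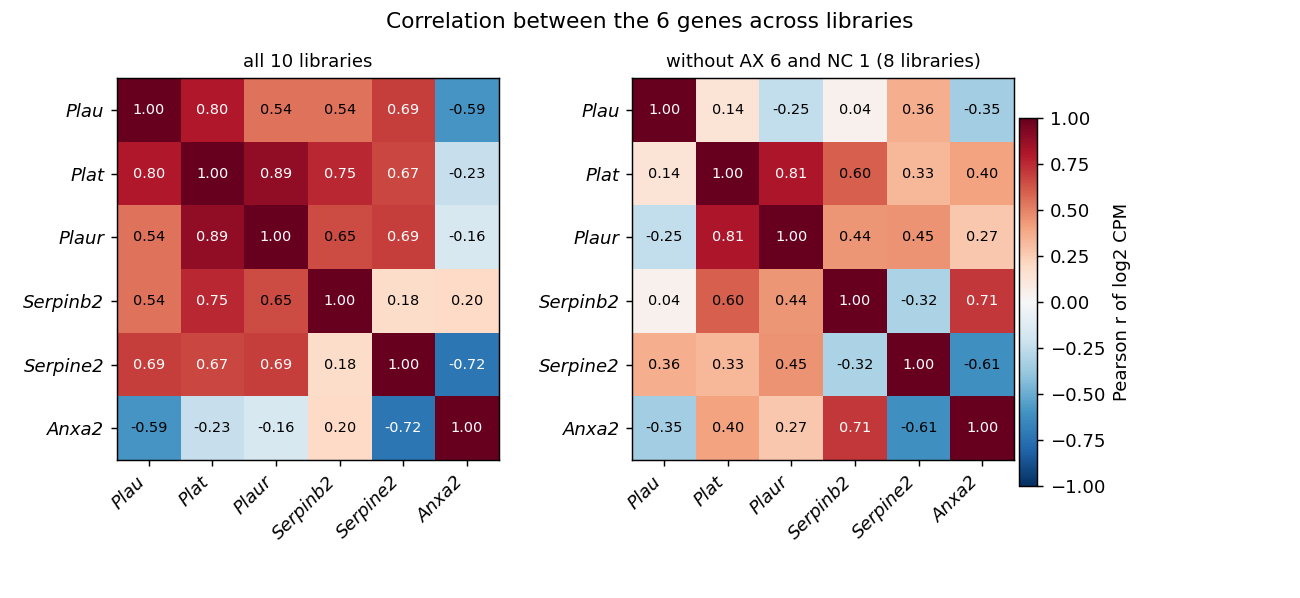
Pearson r of log2 CPM between each pair of the 6 genes, over all 10 libraries (left) and over 8 libraries without AX 6 and NC 1 (right). The value for Plat and Plaur is 0.89 and 0.81, while that for Plau and Plat falls to 0.14 in the right panel, against 0.80 in the left.

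The genes whose level over the 10 libraries most resembled that of each of the 6 differed from gene to gene; likeness is Pearson r of log2 CPM over 10204 genes, given as a description. Plaur was most like Cxcl2 (r = 0.98) and Csf3 (r = 0.98), which encode a neutrophil-attracting chemokine and the growth factor G-CSF, then Tiparp, the costimulatory gene Cd86 and the tissue factor gene F3 (r = 0.97, 0.97 and 0.96). In these 5 genes r was 0.94 to 0.98 without AX 6 and NC 1. Cxcl2 reached 13370 CPM in AX 6, with 1734 CPM in AX 10, against 10570 CPM in NC 3 and 3103 CPM in NC 5; F3 reached 240.9 CPM in AX 6, with 12.1 CPM in AX 10, against 190 CPM in NC 1. Among the genes most like Plat were Git1, Sema3a, Gprc5b and Rab34 (each r = 0.98, and 0.93 to 0.96 without AX 6 and NC 1). Gprc5b, an orphan receptor, had 218.5 CPM in AX 6 and 28.6 CPM in AX 10, against 150.5 CPM in NC 1 and 28.4 CPM in NC 2.

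Among those most like Plau were Nmt2, Zdhhc8, Akap1 and Mex3c (r = 0.96 to 0.97), but without AX 6 and NC 1 these values were 0.69 to 0.87. The genes most like Serpinb2 included Abl1, D3Ertd254e, Rab5a and Acvr1 (r = 0.93 to 0.96). These genes varied far less than Serpinb2: the kinase gene Abl1 had 37.3 CPM in AX 6 and 23.6 CPM in AX 8, against 33.9 CPM in NC 1 and 17.5 CPM in NC 5. Serpine2 was most like Hba-a1, Ankrd28, Tollip, Hba-a2 and Scimp (r = 0.92 to 0.93). Hba-a1 and Hba-a2 encode alpha globin of red cells and are near-identical copies whose counts cannot be separated with certainty. Hba-a1 had 377.3 CPM in AX 6 and 27.6 CPM in AX 9, against 204.1 CPM in NC 1 and 19.9 CPM in NC 4. Anxa2 was most like Slc35e2, Pan3, Eif2s3y, Dgat2 and Tmc4 (r = 0.91 to 0.94).

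Other genes of the pathway were read from lists of 70 further genes in the table, of which 50 were tested. None of the 50 passed over all genes and 0 had an unadjusted p under 0.05 with edgeR; the fit put 28 above and 22 below NC, and their median log2 fold change was 0.06, beside 0.02 over all genes tested. Plg, the plasminogen gene itself, which is made mainly in liver, had 1 count in AX 8 and 0 counts in the other 9 libraries, where a count of 0 allows up to 0.217 to 0.294 CPM. S100a10, the annexin A2 partner, stood at 386.5 ± 205 CPM in AX libraries, against 342.9 ± 91.0 CPM in NC libraries (SD, n = 5 each), with 727.9 CPM in AX 6 and 471.2 CPM in NC 1 as the highest libraries. Its log2 fold change of 0.26 turned to -0.16 without AX 6. Plgrkt, a plasminogen receptor of macrophages, stood at 67.1 ± 24.6 CPM in AX libraries, against 70.4 ± 32.5 CPM in NC libraries. Of 7 tested genes for plasminogen-binding proteins, 2 were fitted higher and 5 lower, with a median of -0.02. Eno1, a glycolytic enzyme that also binds plasminogen at the surface, and the calponin gene Cnn2 had log2 fold changes of -0.22 each (SE 0.24 and 0.27), and Actb, which encodes beta-actin, had -0.08 ± 0.40 (SE).

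Of 6 tested inhibitor genes, 5 were fitted higher and 1 lower, the median being 0.50 and none passing. Over all 12264 genes tested, 6574 were fitted higher and 5690 lower, with a median of 0.02. Serping1, which encodes the C1 inhibitor, stood at 98.9 ± 145 CPM in AX libraries, against 41.7 ± 43.9 CPM in NC libraries, with a log2 fold change of 1.41 that became -0.21 without AX 6. Serpini1, the gene of neuroserpin, an inhibitor of tPA, stood at 2.76 ± 1.56 CPM in AX libraries, against 1.84 ± 0.490 CPM in NC libraries.

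Among 16 tested genes of surface partners and uptake receptors, 10 were fitted higher and 6 lower, with a median of 0.11. Lrp1, the endocytic receptor that clears uPA bound to its inhibitor, stood at 299 ± 106 CPM in AX libraries, against 288.2 ± 68.8 CPM in NC libraries. Itgam encodes the alpha chain of Mac-1, an integrin that binds uPAR. It stood at 94.2 to 617.5 CPM in AX and at 110.2 to 611.8 CPM in 4 NC libraries, with 3085 CPM in NC 3. Its log2 fold change of -1.70 ± 0.85 (SE) was -0.15 without NC 3. The table holds another row named Itgam, with an overlapping span, whose log2 fold change was 0.12, so reads shared by both rows cannot be assigned with certainty. Itga3, an integrin chain of epithelia and mesothelium, had a log2 fold change of 0.79 that became -0.18 without AX 6, and Itga5 had 0.16.

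Of 11 tested plasmin and uPA substrates, 7 were fitted higher and 4 lower, with a median of 0.42, beside 0.02 over all genes tested. None of them passed. Tgfb1, whose latent product plasmin can activate, stood at 102.8 ± 41.6 CPM in AX libraries, against 132.5 ± 29.7 CPM in NC libraries (log2 fold change -0.33 ± 0.25, SE). Tgfb2, the macrophage elastase gene Mmp12 and Vegfa had log2 fold changes of 0.65, 0.49 and 0.42, which became 0.15, -0.13 and -0.04 without AX 6. In the clade B serpin cluster that holds Serpinb2 on chromosome 1, 2 of 8 listed neighbours were tested by the first row of their name, Serpinb8 at 7.70 ± 3.70 CPM in AX libraries, against 5.70 ± 1.53 CPM in NC libraries, and Serpinb5 at 12.6 ± 10.9 CPM in AX libraries, against 11.1 ± 14.3 CPM in NC libraries. The log2 fold change of Serpinb5, 0.36, became -0.38 without AX 6 and 1.44 without NC 1. Another row named Serpinb10, which overlaps Serpinb2, was also tested and had a log2 fold change of 0.32, with 0.812 to 8.23 CPM across AX and 0.720 to 7.73 CPM across NC. Of 9 tested annexins other than Anxa2, 3 were fitted higher and 6 lower, with a median of -0.05. Anxa1, known for restraining neutrophil influx, stood at 368.2 ± 302 CPM in AX libraries, against 272.3 ± 121 CPM in NC libraries. Anxa8 had a log2 fold change of 0.54, Anxa4 of -0.23 and Anxa6 of -0.10, and those of Anxa1 and Anxa8 became -0.19 and -0.01 without AX 6.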

How the data were processed

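Libraries were made from polyA RNA of peritoneal lavage cells with the VAHTS Universal V6 kit after MJzol extraction, per the labels' protocols. Reads were aligned with HISAT2 2.0.4 to the mm10 build, as the submitters' processing notes record. Not given in the sources used here are the counting tool, its annotation and whether strand was used. Per gene, the deposited table has whole, unnormalised counts. Its deposited FPKM column equals that count over gene length and library total (largest relative gap 1.69e-05 over 7639 genes) and served to compare genes and in an alternative test.

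Genes were kept by filterByExpr, scaled by TMM and compared with the two-sided quasi-likelihood F test of edgeR 4.0.16 in R 4.3.3, without covariates, with Benjamini-Hochberg adjustment over all 12264 genes tested. CPM values use library totals without TMM. The SE is the log2 fold change divided by the root of F. Group means were compared by exact permutation over 252 arrangements, which cannot give a p below 0.00794. Correlations used log2 CPM with an offset of 0.5 counts and 100000 resamples. Other steps ran in Python 3.11.15 (scipy 1.17.1, matplotlib 3.10.9). The fitting step was tested on simulated data. Alternatives were DESeq2 1.42.0, limma-voom (limma 3.58.1) with and without library quality weights, RLE or no scaling, no or a stricter filter, limma on log2(FPKM + 1), marker lists as covariates, and leaving out libraries.

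The 6 genes and all lists were chosen with earlier results of these data known. By the rule for named genes, the 6 genes and Plg, S100a10, Plgrkt, Lrp1 and Itgam are always named, with up to 4 tested genes of smallest p per pathway list and the 5 most alike genes per member with a mean log2 CPM of at least 1. Some genes that this rule names are not reported here. The marker lists used as covariates were those of mesothelial cells, large peritoneal macrophages and neutrophils. Each covariate was the mean log2 CPM of the list's tested markers, centred over the libraries. The lists of fibroblasts and stroma, endothelial cells, monocytes, B cells, T and NK cells and gut epithelium were not used as covariates. Monocytes summed to 2766 to 6259 CPM in AX and 3495 to 6464 CPM in NC. B cells summed to 98.9 to 265.7 CPM in AX and 71.8 to 264.7 CPM in NC. T and NK cells summed to 25.1 to 62.0 CPM in AX and 39.4 to 91.6 CPM in NC. Gut epithelium summed to 16.7 to 499.8 CPM in AX and 33.5 to 1126 CPM in NC. The macrophage sum with Saa3 was 20220 to 37690 CPM in AX and 22720 to 42060 CPM in NC.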

Additional observations from a re-analysis of the deposited data

Results flagged for a closer look

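Within a group of 5 libraries, a library was singled out when its gap to the nearest other one exceeded 0.71 of the group's range. For normally distributed values, chance alone does this in about 1 group in 20. The values examined were not transformed, so that share need not hold here. Of 42 groups of values examined, 10 held such a library. Plau was singled out in AX 6 at 26.65 CPM and in NC 1 at 26.02 CPM, and Plat in AX 6 at 146 CPM and in NC 1 at 100.3 CPM. The mesothelial marker sum was singled out in AX 6 at 2520 CPM and in NC 1 at 1354 CPM, and the stromal sum in AX 6 at 3030 CPM and in NC 1 at 1760 CPM. The gut epithelial sum was singled out in AX 6 at 499.8 CPM. Itgam was singled out in NC 3 at 3085 CPM. Since 9 of these 10 fall in AX 6 or NC 1, they are not independent of each other.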

How the results depend on the processing

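No paired analysis was possible because AX and NC share no replicate numbers. Of 132 alternative values for the 6 log2 fold changes, 117 kept their direction and 15 did not, and 0 passed an adjusted p of 0.05. Leaving out each library gave log2 fold changes from -0.27 to 0.80 for Plau, -0.44 to 2.20 for Plat, -0.21 to 0.36 for Plaur, 0.09 to 1.23 for Serpinb2, -0.53 to 0.21 for Serpine2 and 0.00 to 0.17 for Anxa2. Plaur also turned to -0.01 with library quality weights, -0.01 on log2(FPKM + 1), -0.16 with the mesothelial covariate and -0.10 without AX 6 and NC 1. Serpine2 turned to 0.11 with the macrophage and 0.04 with the neutrophil covariate. Differences in mean CPM, recomputed without each library after the data were seen, ran from -2.33 to 5.03 for Plau, -8.75 to 34.6 for Plat, -111 to 143 for Plaur, 22.1 to 320.0 for Serpinb2, -3.43 to 0.598 for Serpine2 and -59.1 to 150.0 for Anxa2; Plaur gave -31.9 without AX 6 and NC 1. The count of genes called was 0 to 1 on leaving out a library (1, Rnf24, lower in AX without NC 3) and 0 otherwise, and that of pathway genes 0 throughout. The count of correlated pairs was 0 to 7 on leaving out a library, 0 without AX 6 and NC 1 and 1 with Spearman rho. The causes were not tested. Serpine2 and Plau, the lowest of the 6 in counts, carry a counting CV of 9.20% and 8.49% at their mean count, below their spread between libraries.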
